A study of Glycine max with 12 samples.

Results

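NAC transcription factors of soybean leaves were followed across sprays of melatonin and silica nanoparticles under saline-alkali stress. Their members were the genes whose description contains the words NAC domain, NAC transcription factor or NAC protein and that reached 1 FPKM in at least 3 of the 12 libraries. FPKM counts sequenced fragments per length of transcript and per size of library. By this rule 126 genes were described as NAC genes and 51 of them were members, out of 28260 genes in the table that reached the same level. The other 75 described genes stayed below it: 66 of them did not reach 1 FPKM in any library, and 1 was listed at 0 in all 12. A further 12 genes have NAC-like names outside the rule, such as NTM1-like 9 or JUNGBRUNNEN, and were not counted as members.

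All 12 libraries were made from functional leaves of wild-type plants of the soybean cultivar HN95, taken 7 days after foliar spraying, with 3 libraries per group. The groups were a spray of 200 mg/L nano-SiO2 (silica nanoparticles) with 300 µM melatonin (MT, an indoleamine that plants also make), MT alone at 300 µM, nano-SiO2 alone at 200 mg/L, and a control. Plants of every group, the control included, grew in soil treated with a mixed solution of sodium salts (320 mM each of NaHCO3 and Na2SO4, 40 mM each of NaCl and Na2CO3), so no unstressed leaf entered any comparison. Nothing in the labels says what the control leaves were sprayed with, or how many plants each biological replicate holds.

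NAC proteins are transcription factors of plants that bind DNA through a conserved domain in their N-terminal part, named after the petunia gene NAM and the Arabidopsis genes ATAF and CUC. In Arabidopsis some of them drive leaf senescence: NAP promotes chlorophyll breakdown, and VNI2 and JUB1 hold senescence back. Others form a cascade that builds secondary walls in xylem and fibres, in which NST and VND factors act as switches and SND2 acts downstream of them, with cellulose synthases and laccases among the genes at the end. These roles are background from Arabidopsis. The soybean genes are grouped below only by the Arabidopsis number in their description, so NAC73 stands for SND2, NAC29 for NAP and NAC43 for NST1.

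A minority of the senescence and secondary wall genes reached the level of the rule, as did a minority of all described NAC genes (51 of 126). Of 21 described genes of the senescence type, 7 were members: both genes numbered NAC53 (NTL4), 2 of 3 numbered NAC29 (NAP), and 1 each numbered NAC83 (VNI2), NAC2 (ATAF1) and NAC42 (JUB1). None of the 3 described ORE1 genes (NAC92) was a member, and their mean FPKM lay between 0.0445 and 0.536. Of 32 described genes of the secondary wall type, 9 were members, and 7 of these carry the number NAC73 (SND2), out of 8 described. The other members of this type were 1 of 2 NAC43 genes (NST1) and the only NAC76 gene (VND2), whereas none of the 6 VND4 genes, the 2 VND7 genes or the 6 XND1 genes was a member. Another 5 members carry numbers of membrane-bound factors, 13 carry other numbers, and 17 have no Arabidopsis number; the last set includes names such as NAC1 and NAC6 that follow soybean's own numbering.

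The 3 members just inside the rule had a third-highest FPKM of 1.05 (Glyma.17G154100, NAC71), 1.07 (Glyma.12G186902, NAC89) and 1.19 (Glyma.06G249100, NAC18). The 3 described genes just outside it had 0.986 (Glyma.10G216400, NAC30, the vessel switch VND7), 0.834 (Glyma.08G075300, NAC104, the xylem repressor XND1) and 0.800 (Glyma.12G186851, NAC40). Members lay on 18 chromosomes, read from the identifiers. Some lie next to or near each other by identifier, among them the pairs of a NAC50 and a NAC53 gene in Glyma.10G197500 and Glyma.10G197600 and in Glyma.20G192500 and Glyma.20G192300. The sources used here do not say how fragments shared by close copies were divided, so values of close copies, the NAC73 genes included, may not be fully separate.

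The libraries summed to between 522120 and 559092 FPKM, and the relative depth of the libraries, read from the steps between low values of the same gene, was 0.849 to 1.27 around their mean. Absolute depth is unknown. As a check of the leaf label, the 5 genes for the small subunit of ribulose bisphosphate carboxylase, a mesophyll protein, summed to 12600 to 47600 FPKM per library. In each group 1 library stood apart on the first principal component of all tested genes. Control 1 was at -27.8 against 17.2 and 24.7 for the other controls, and MT 3 was at 8.03 against -26.6 and -30.1 for the other MT libraries. Nano-SiO2+MT 3 was at 4.21 against -28.8 and -29.6, and nano-SiO2 2 at 49.8 against 18.6 and 20.2. A gene is called changed below when its adjusted p, from limma with the Benjamini-Hochberg adjustment over the 28260 genes, was under 0.05. Changes are differences of log2(FPKM + 1), which understate the change of genes with low FPKM.

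Most of the NAC transcript came from a few genes that varied little between groups. The mean FPKM of members over the 12 libraries ranged from 0.732 to 33.5 with a median of 2.5, against a median of 5.00 for all tested genes, and 36 members were at 1 FPKM or more in every library. The 8 most abundant members held 55.7% of the summed mean FPKM of the family. They were Glyma.20G192300 (NAC53) with a mean of 33.5 FPKM, Glyma.08G360200 with 32.1, Glyma.06G114000 with 28.8, Glyma.04G249000 with 27.0, Glyma.20G172100 (NAC17) with 16.4, Glyma.06G152900 (NAC82) with 15.4, Glyma.13G280000 (NAC56) with 12.4 and Glyma.10G197600 (NAC53) with 11.3. NTL4, the Arabidopsis factor numbered NAC53, is a membrane-bound protein linked to senescence under drought, and the factor numbered NAC17 carries signals from mitochondria to the nucleus.

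Glyma.20G192300, the most abundant member, had 32.7, 30.5 and 36.6 FPKM in nano-SiO2+MT libraries, 27.5, 34.1 and 35.0 in MT libraries, 33.9, 37.6 and 33.5 in nano-SiO2 libraries and 28.7, 34.4 and 37.6 in control libraries. All 4 groups overlapped, and the highest group mean was 1.09 times the lowest. Among the 8 most abundant members this ratio reached 1.44 in Glyma.06G114000, described as a NAC transcription factor without a number. It had 24.5, 25.2 and 24.1 FPKM in nano-SiO2+MT libraries, 23.2, 29.3 and 25.9 in MT libraries, 33.3, 26 and 27.9 in nano-SiO2 libraries and 35.3, 31.3 and 39.5 in control libraries. The 6 libraries sprayed with MT lay below the 3 controls, but nano-SiO2 libraries overlapped with them, and none of the comparisons called the gene (its lowest adjusted p was 0.0542, limma, in the comparison averaged over both backgrounds described below, and 0.0454 there without nano-SiO2 2). None of the 8 was called in any comparison. In MT against control the 95% intervals of their log2 changes reached from -0.71 to 0.61, so changes of this size in single genes are not excluded by these data. Over all 51 members, the ratio of the highest to the lowest group mean was over 2 for 10 and under 1.2 for 11.

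**Figure D1:**
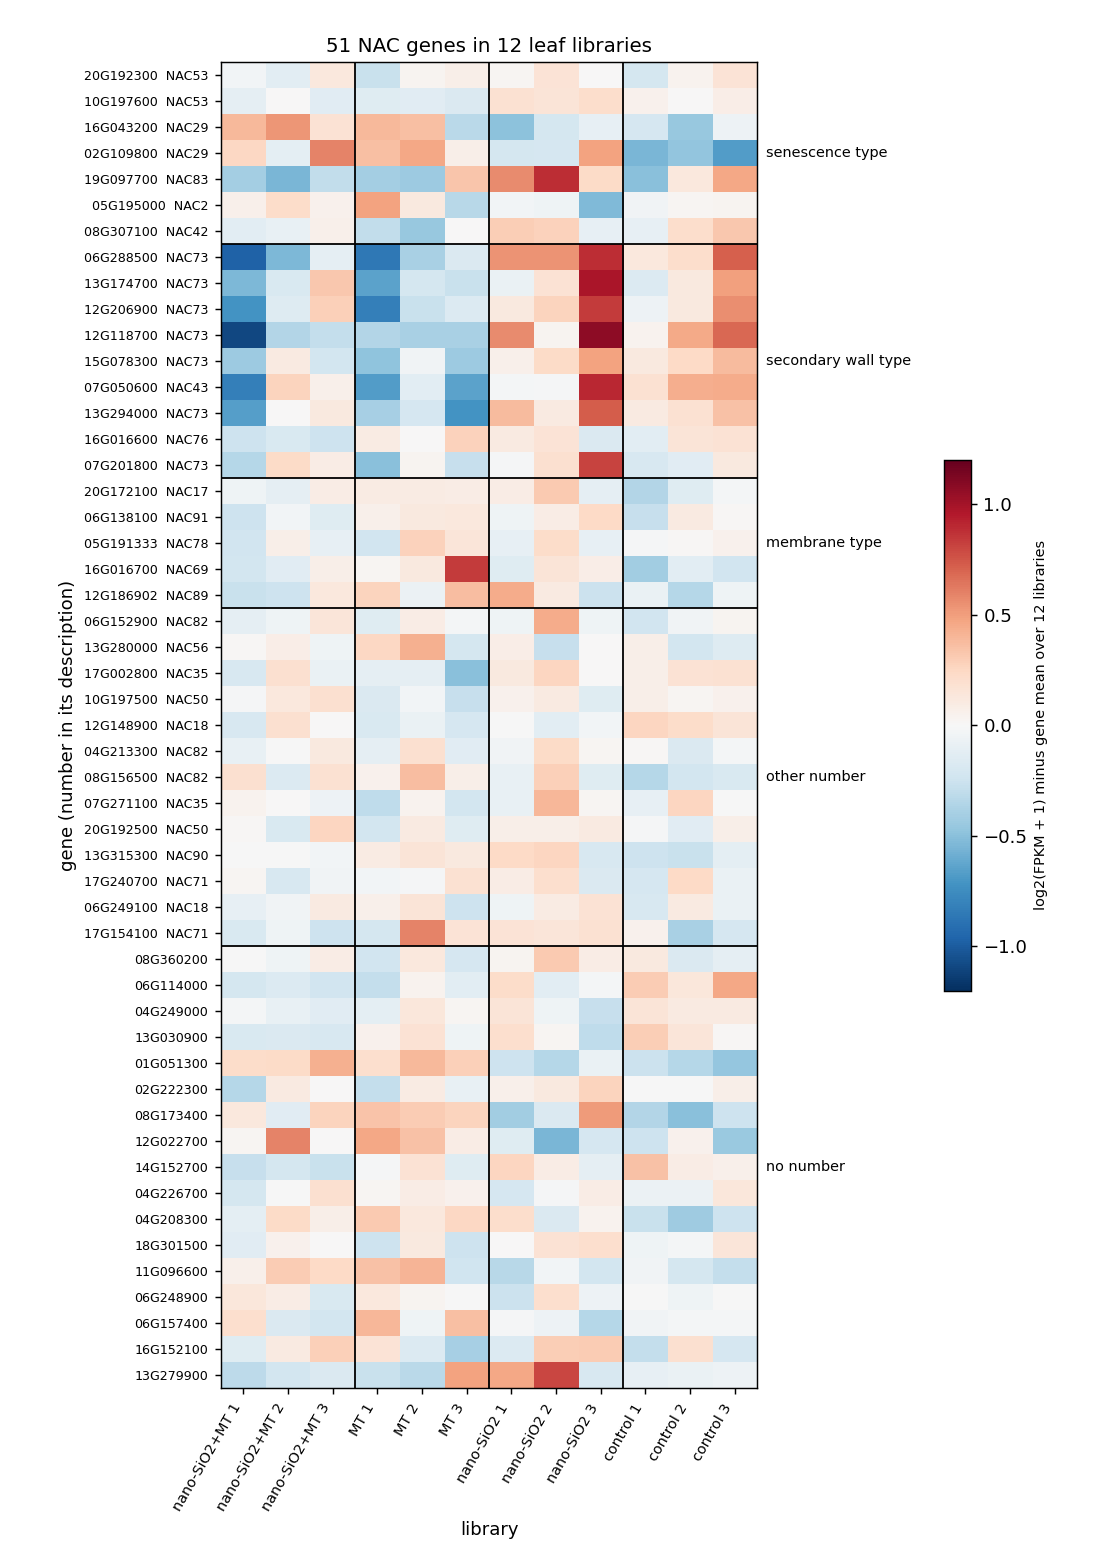
Heat map of the 51 NAC members (rows, grouped by type, identifiers without the prefix Glyma) in the 12 libraries (columns, 4 groups of 3). Colour shows log2(FPKM + 1) minus the gene's mean over the 12 libraries; the NAC73 rows are highest in nano-SiO2 3 and low in the MT and nano-SiO2+MT libraries.

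Against control, MT gave called changes in 3 of 51 members, all higher, where 3.35% of all tested genes were called (1.66% higher and 1.69% lower). The 3 genes were Glyma.01G051300, Glyma.02G109800 and Glyma.04G208300. Without overlap between the 3 MT and the 3 control libraries, 10 members were higher, beside 9.12% of all tested genes, and 12 were lower, beside 14.0%. At an unadjusted p under 0.05 there were 18 members, 35.3% of them, where 16.8% of all tested genes passed.

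Glyma.01G051300 is described as NAC domain protein NAC1 in soybean's own numbering. It is 1 of 6 members whose deposited annotation carries the term leaf senescence. In MT against control 3 of these 6 were above 0 and 3 below, beside 40.8% of all tested genes above 0. Their median was 0.02, against -0.05 over all tested genes. Of the 6, 2 were called higher and 0 lower (limma), beside 1.66% and 1.69% of all tested genes. Glyma.01G051300 had 6.83, 6.89 and 8.04 FPKM in nano-SiO2+MT libraries, 6.76, 7.80 and 7.22 in MT libraries, 4.69, 4.31 and 5.36 in nano-SiO2 libraries and 4.62, 4.32 and 3.87 in control libraries. Every library with MT was above every library without it. The log2 change was 0.65 ± 0.12 (SE, n = 3 libraries per group, adjusted p = 0.00951, limma) in MT against control and 0.65 ± 0.12 (adjusted p = 0.0185, limma) in nano-SiO2+MT against control. Against nano-SiO2, the combined spray gave 0.51 ± 0.12 with an adjusted p of 0.0503 (limma), short of the threshold; it passed without control 1 (adjusted p = 0.0484) or nano-SiO2 3 (0.0494) and under quantile normalization (0.0248) or median-ratio scaling (0.0288). The call in MT against control was lost only without control 3 (adjusted p = 0.0565, limma), and the call in nano-SiO2+MT against control was lost without control 2 or 3 or nano-SiO2+MT 1 or 3 (adjusted p up to 0.103, limma).

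Glyma.02G109800 is a NAC29 gene, the number of NAP, which in Arabidopsis promotes leaf senescence. Its values were 6.69, 4.96 and 8.79 FPKM in nano-SiO2+MT libraries, 7.31, 7.95 and 5.78 in MT libraries, 4.60, 4.61 and 8.03 in nano-SiO2 libraries and 3.42, 3.66 and 3.06 in control libraries. The 3 controls were the lowest of all 12 libraries, and nano-SiO2 3 stood with the libraries sprayed with MT. The change in MT against control was 0.86 ± 0.21 (SE, adjusted p = 0.0416, limma), the largest of any member in that comparison. This call was lost in 6 of the 12 fits that left out 1 library (control 1, 2 or 3, MT 1 or 2, or nano-SiO2+MT 1), with adjusted p up to 0.15 (limma). The same gene had the largest change of any member in nano-SiO2 against control, 0.59 ± 0.21, which did not pass (adjusted p = 0.36, limma).

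Glyma.04G208300, described only as a NAC transcription factor, had 1.93, 2.72 and 2.33 FPKM in nano-SiO2+MT libraries, 2.95, 2.47 and 2.78 in MT libraries, 2.69, 1.83 and 2.28 in nano-SiO2 libraries and 1.65, 1.36 and 1.67 in control libraries. Here too the controls were lowest and did not overlap with any other group. The change in MT against control was 0.54 ± 0.14 (SE, adjusted p = 0.0483, limma). It passed in 7 of 20 alternatives and was lost in 9 of the 12 fits that left out 1 library, with adjusted p up to 0.196 (limma); only the fits without nano-SiO2 1, nano-SiO2 2 or nano-SiO2+MT 2 kept it.

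The largest fall of any member in MT against control was that of Glyma.07G050600, numbered NAC43 as is NST1, the switch of fibre walls. This gene had 0.603, 2.41 and 1.95 FPKM in nano-SiO2+MT libraries, 0.787, 1.59 and 0.817 in MT libraries, 1.78, 1.81 and 4.31 in nano-SiO2 libraries and 2.22, 2.84 and 2.87 in control libraries. The MT libraries were all below the controls, but the other groups spread widely, and the log2 difference of -0.84 ± 0.29 did not pass (adjusted p = 0.154, limma). It passed with only these 2 groups in the fit (adjusted p = 0.0337, limma).

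Because single comparisons rest on 3 libraries against 3, the MT effect was also averaged over both backgrounds, as the mean of MT against control and nano-SiO2+MT against nano-SiO2 in the same fit. This comparison was added after seeing the data. It sets the 6 libraries sprayed with MT against the 6 without, and it called 8 of 51 members, where 7.77% of all tested genes were called. Of these, 4 were higher and 4 were lower, beside 2.05% and 5.72% of all tested genes. Without overlap between the 6 libraries with MT and the 6 without, 1 member was higher and 3 were lower, beside 0.839% and 2.85% of all tested genes. The 4 higher members were Glyma.01G051300, the NAC29 genes Glyma.02G109800 and Glyma.16G043200, and Glyma.12G022700. The 4 lower members were all numbered NAC73. Over all 51, 18 log2 changes were above 0, beside 29.2% of all tested genes, and 33 below (median -0.05, against -0.10 over all tested genes), a split that turned to 28 and 23 under quantile normalization and to 30 and 21 under median-ratio scaling.

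**Figure D2:**
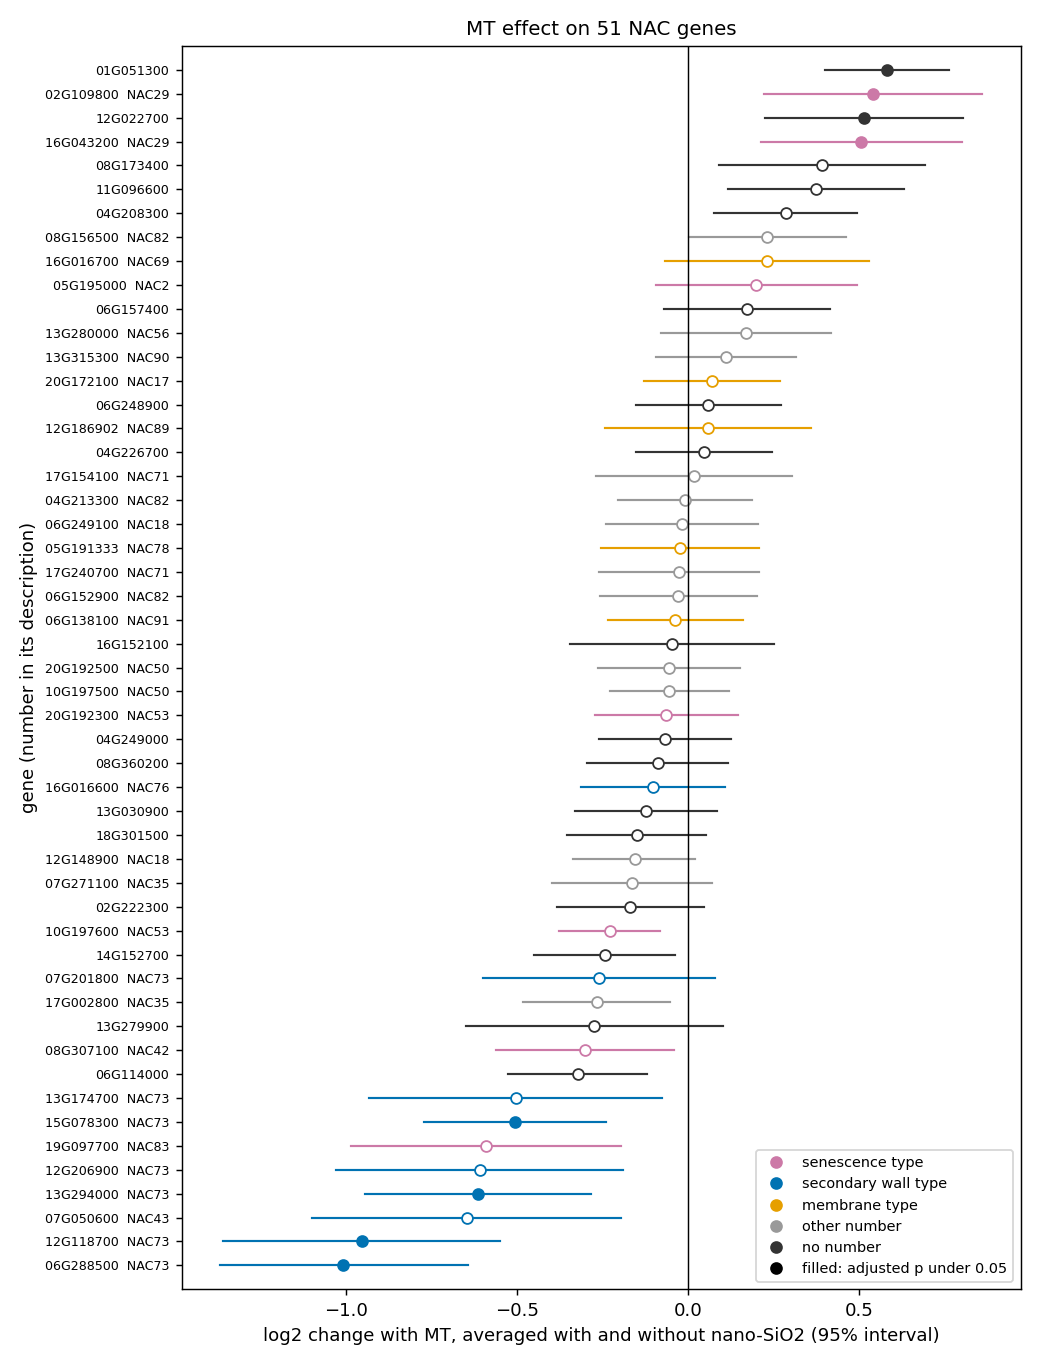
Log2 change with MT, averaged over both backgrounds, for the 51 NAC members (rows, coloured by type), with 95% intervals; filled points passed an adjusted p of 0.05 (limma). The 4 filled points on the left, from -1.01 to -0.51, are NAC73 genes, and the 4 filled points on the right lie between 0.51 and 0.58.

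The averaged change of Glyma.01G051300 was 0.58 ± 0.08 (SE, adjusted p = 0.0018, limma), and it passed in all 19 alternatives run for it. The second NAC29 gene, Glyma.16G043200, had 11.0, 12.2 and 9.32 FPKM in nano-SiO2+MT libraries, 11.0, 10.7 and 6.28 in MT libraries, 5.48, 6.87 and 7.53 in nano-SiO2 libraries and 6.97, 5.67 and 7.78 in control libraries. All libraries with MT except MT 3 were above all libraries without it. Its averaged change was 0.51 ± 0.14 (adjusted p = 0.04, limma), beside 0.54 ± 0.15 (adjusted p = 0.0421, limma) for Glyma.02G109800. The third NAC29 gene was below the rule, at a mean of 0.187 FPKM.

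The calls of both NAC29 genes depended on single libraries. Each was called in 8 of 19 alternatives. For Glyma.02G109800 the call was lost in 9 of the 12 fits that left out 1 library and remained without nano-SiO2 3, MT 3 or nano-SiO2+MT 2, with adjusted p from 0.011 to 0.102 (limma). For Glyma.16G043200 it was lost in 8 of those 12 fits and remained without control 1, nano-SiO2 3, MT 3 or nano-SiO2+MT 3, with adjusted p from 0.00641 to 0.113 (limma).

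Glyma.12G022700, described as NAC domain protein NAC6 in soybean's numbering, had 4.27, 6.83 and 4.21 FPKM in nano-SiO2+MT libraries, 6.16, 5.63 and 4.51 in MT libraries, 3.69, 2.54 and 3.49 in nano-SiO2 libraries and 3.37, 4.36 and 2.80 in control libraries. MT libraries lay above the controls, while nano-SiO2+MT libraries overlapped with control 2. The averaged change was 0.51 ± 0.13 (adjusted p = 0.0347, limma), and it was lost without control 3, nano-SiO2 2, MT 1 or 2, or nano-SiO2+MT 1 or 2 (adjusted p up to 0.0937, limma).

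**Figure D3:**
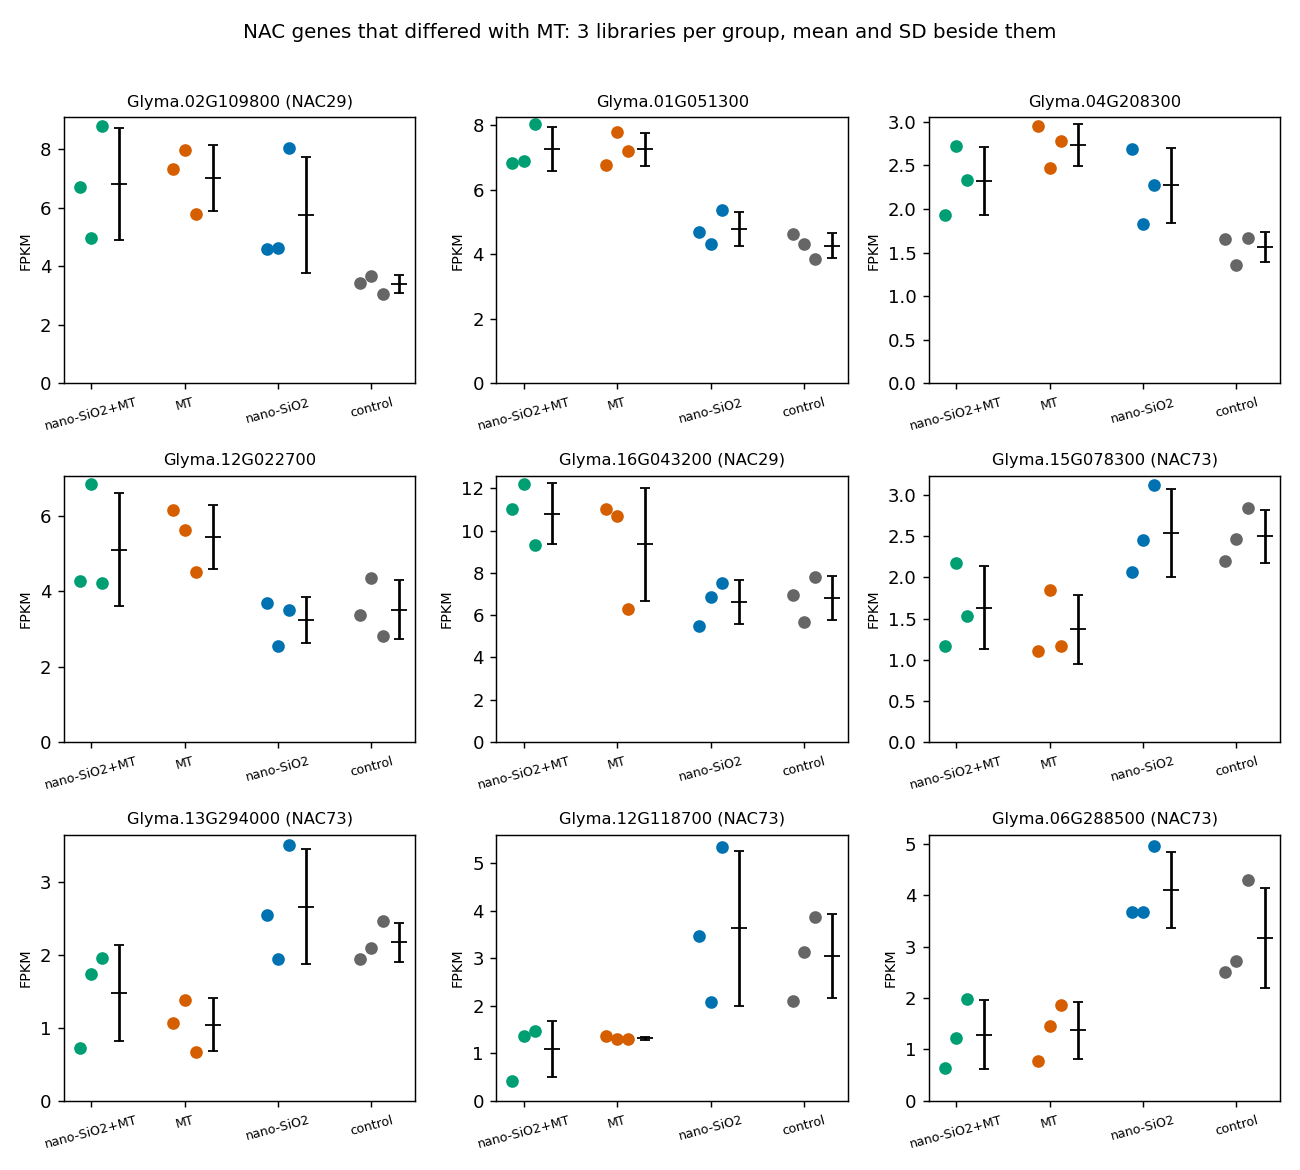
FPKM (vertical axes, from 0) in each library of the 9 NAC members called in MT against control or in the averaged MT comparison, with the group mean and SD beside the 3 points of each group. The panels of Glyma.01G051300, Glyma.06G288500 and Glyma.12G118700 show no overlap between libraries with and without MT.

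The 7 NAC73 genes, numbered as SND2, were lower with MT. In the averaged comparison all 7 log2 changes were below 0, where 70.8% of all tested genes were, with a median of -0.61 against -0.10. Of the 7, 4 were called lower, beside 5.72% of all tested genes. This count of 7 of 7 below 0 held in all 19 alternatives, both other scalings included, while the number called ranged from 2 to 6. In MT against control all 7 were again below 0 (median -0.62), in a comparison where 40.8% of all tested genes were above 0, and none passed alone. In nano-SiO2 against control all 7 were above 0 (median 0.21, against 0.10 over all tested genes), and 6 of 7 were after quantile normalization or median-ratio scaling; none of these passed either. Without nano-SiO2 3, 3 of the 7 were above 0 and 4 below (median -0.01), and without control 1, 5 were above and 2 below (median 0.07).

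Glyma.06G288500 (NAC73) had the largest averaged change of any member. It had 0.646, 1.22 and 1.99 FPKM in nano-SiO2+MT libraries, 0.776, 1.46 and 1.86 in MT libraries, 3.68, 3.67 and 4.96 in nano-SiO2 libraries and 2.51, 2.73 and 4.30 in control libraries. The 6 libraries with MT were all below the 6 without, and the group means spanned 3.19-fold. The averaged change was -1.01 ± 0.17 (SE, adjusted p = 0.00403, limma) and was called in all 19 alternatives. In nano-SiO2+MT against nano-SiO2 it fell by 1.19 ± 0.24 (adjusted p = 0.03, limma), the only member called in that comparison, where 1.53% of all tested genes were. That single call was lost without control 2, nano-SiO2 1, 2 or 3, or nano-SiO2+MT 1 or 2 (adjusted p up to 0.14, limma).

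Glyma.12G118700 (NAC73) had 0.418, 1.37 and 1.48 FPKM in nano-SiO2+MT libraries, 1.36, 1.30 and 1.31 in MT libraries, 3.46, 2.08 and 5.35 in nano-SiO2 libraries and 2.11, 3.14 and 3.87 in control libraries. Again no library with MT reached any library without it. The averaged change was -0.95 ± 0.19 (adjusted p = 0.00926, limma), called in all 19 alternatives. In nano-SiO2+MT against control this gene had the largest difference of any member, -0.97 ± 0.26, which did not pass (adjusted p = 0.103, limma).

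Another pair of NAC73 genes was called in the averaged comparison with smaller changes. Glyma.13G294000 had 0.724, 1.74 and 1.96 FPKM in nano-SiO2+MT libraries, 1.07, 1.38 and 0.663 in MT libraries, 2.55, 1.94 and 3.50 in nano-SiO2 libraries and 1.94, 2.10 and 2.47 in control libraries. Only nano-SiO2+MT 3 overlapped with the libraries without MT, and the change was -0.61 ± 0.15 (adjusted p = 0.0285, limma). Glyma.15G078300 had 1.17, 2.17 and 1.53 FPKM in nano-SiO2+MT libraries, 1.10, 1.85 and 1.17 in MT libraries, 2.07, 2.45 and 3.12 in nano-SiO2 libraries and 2.20, 2.47 and 2.84 in control libraries. Here nano-SiO2+MT 2 overlapped with nano-SiO2 1, and the change was -0.51 ± 0.12 (adjusted p = 0.0262, limma). Both calls were lost without control 2 or 3, nano-SiO2 3, MT 1 or nano-SiO2+MT 1, and under quantile normalization and median-ratio scaling, with adjusted p up to 0.0764 and 0.0748 (limma), and that of Glyma.13G294000 also without the filter on low values.

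The remaining 3 NAC73 genes were below 0 and did not pass in the reported fit. The averaged log2 changes were -0.61 ± 0.19 for Glyma.12G206900 (adjusted p = 0.0735), -0.51 ± 0.20 for Glyma.13G174700 (adjusted p = 0.14) and -0.26 ± 0.16 for Glyma.07G201800 (adjusted p = 0.329, all limma); that of Glyma.12G206900 passed without nano-SiO2+MT 3 (adjusted p = 0.0376). Glyma.12G206900 ranged from 0.863 to 4.89 FPKM over the 12 libraries, Glyma.13G174700 from 1.12 to 5.55 and Glyma.07G201800 from 0.543 to 2.83, each lowest in MT 1 and highest in nano-SiO2 3. Of the 9 secondary wall members, 8 were highest in nano-SiO2 3, the 7 NAC73 genes and Glyma.07G050600, and 7 were lowest in MT 1 or nano-SiO2+MT 1. Without nano-SiO2 3 the median averaged change of the NAC73 genes was -0.50, and without nano-SiO2+MT 1 it was -0.48, each with 2 of 7 called.

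The other 2 secondary wall members did not pass. The averaged change of Glyma.07G050600 (NAC43) was -0.65 ± 0.21 (adjusted p = 0.0771, limma). Glyma.16G016600, numbered NAC76 as is the vessel factor VND2, had 1.08, 1.17 and 1.07 FPKM in nano-SiO2+MT libraries, 1.64, 1.47 and 1.99 in MT libraries, 1.66, 1.76 and 1.19 in nano-SiO2 libraries and 1.26, 1.75 and 1.78 in control libraries. Unlike the NAC73 genes it was not low in MT libraries, and the combined spray held the 3 lowest values.

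Most genes of a secondary wall list were lower with MT in the same libraries. The list, searched by description, holds cellulose synthase subunits of secondary walls, laccases, irregular xylem proteins, fasciclin-like arabinogalactan proteins, MYB46 and others, and contains no NAC gene; 62 of its 130 genes were tested. In the averaged MT comparison 35 were called lower and 0 higher (limma; median -0.66), beside 5.72% and 2.05% of all tested genes. In MT against control 15 were lower and 0 higher (median -0.86), beside 1.69% and 1.66%. The median FPKM of the 62 genes was 1.21 to 1.66 in MT libraries and 1.51 to 3.63 in nano-SiO2+MT libraries. It was 3.71 to 7.1 in nano-SiO2 libraries and 2.83 to 4.58 in control libraries. Some of the 62 may thus have been tested only because of groups where they were high, so these counts are no independent support. The largest averaged change of a gene above 5 FPKM was -1.63 ± 0.22 (adjusted p = 0.00143, limma), that of Glyma.05G085700, an IRX15-LIKE protein of xylan synthesis. The laccase-4 gene Glyma.03G077900, of a family that polymerizes lignin, followed with -1.53 ± 0.29 (adjusted p = 0.00803, limma).

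The summed FPKM of the 7 NAC73 genes was 5.97, 12.0 and 14.4 in nano-SiO2+MT libraries, 6.83, 10.8 and 9.50 in MT libraries, 17.6, 17.3 and 30.2 in nano-SiO2 libraries and 13.8, 16.6 and 22.3 in control libraries. For the 62 wall genes the sums were 135, 247 and 307 in nano-SiO2+MT libraries, 123, 181 and 151 in MT libraries, 320, 412 and 623 in nano-SiO2 libraries and 264, 353 and 403 in control libraries. Library by library, the NAC73 sum was between 4.21% and 6.28% of the wall sum, while each sum varied several-fold. Both sums were highest in nano-SiO2 3. In bulk leaf RNA, fewer cells that build secondary walls and less RNA of these genes per cell cannot be told apart. Other gene lists searched by description were examined too. Of 28 tested mesophyll markers, 24 had an averaged log2 change above 0 (median 0.23) and 0 passed (limma), beside 29.2% of all tested genes above 0. In nano-SiO2+MT against nano-SiO2, 26 were above 0 (median 0.35), beside 25.4% of all tested genes. In MT against control only 16 were above 0 (median 0.02), beside 40.8%, and 2 were called lower (limma), beside 1.69%. The 28 markers summed to between 48600 and 66900 FPKM in nano-SiO2+MT libraries, 43800 and 62700 in MT libraries, 27600 and 46200 in nano-SiO2 libraries and 46500 and 74800 in control libraries. Another list holds 32 genes described as leghemoglobin, nodulin-26 or early nodulin, words that do not limit a gene to roots or nodules. Of these, 13 were tested, with a median averaged change of -0.39. The averaged comparison called 4 lower and 0 higher (limma), beside 5.72% and 2.05% of all tested genes. Sums of the 13 genes lay between 655 and 950 FPKM in nano-SiO2+MT libraries, 622 and 761 in MT libraries, 549 and 668 in nano-SiO2 libraries and 672 and 874 in control libraries. The part of these lists in the NAC73 and wall results was not tested.

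**Figure D4:**
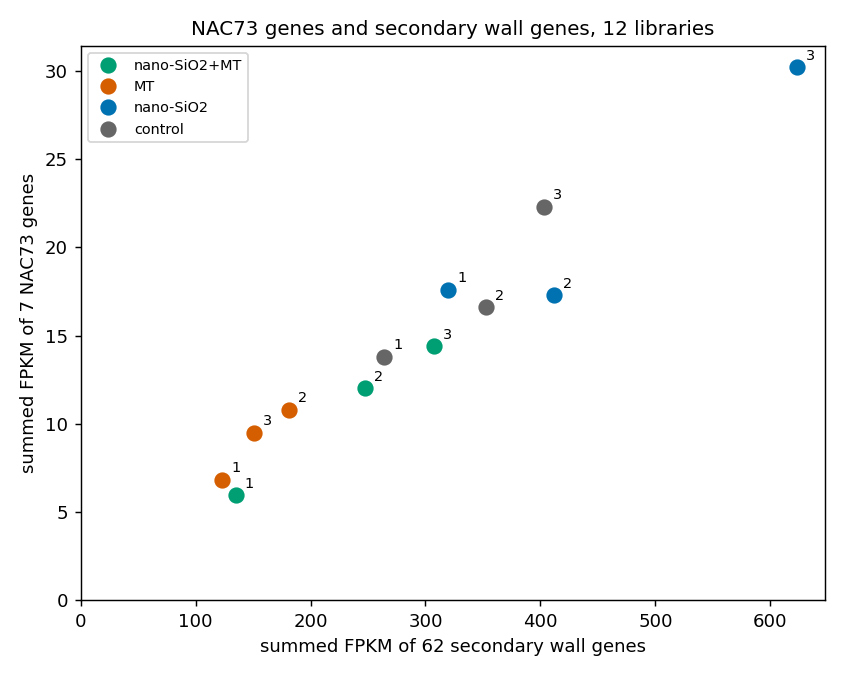
Summed FPKM of the 7 NAC73 genes (vertical axis) against that of 62 secondary wall genes (horizontal axis) in the 12 libraries, labelled by replicate number. Both axes start at 0; nano-SiO2 3 is farthest out at 623 and 30.2, and MT 1 and nano-SiO2+MT 1 are nearest to 0.

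The senescence members did not move as one group. In the averaged MT comparison 3 of the 7 were above 0 and 4 below (4 and 3 under median-ratio scaling), and the 2 called were the NAC29 genes. Glyma.19G097700, numbered NAC83 as is VNI2, had 1.37, 1.15 and 1.57 FPKM in nano-SiO2+MT libraries, 1.37, 1.33 and 2.96 in MT libraries, 3.67, 4.84 and 2.69 in nano-SiO2 libraries and 1.23, 2.44 and 3.34 in control libraries. The 3 nano-SiO2+MT libraries lay below the 3 nano-SiO2 libraries, while MT and control libraries overlapped. Its log2 difference in nano-SiO2+MT against nano-SiO2 was -0.98 ± 0.26 (adjusted p = 0.0789, limma; 0.0471 without control 1 and 0.0477 without MT 3), and its averaged difference was -0.59 ± 0.18 (adjusted p = 0.0671, limma). The averaged difference passed without control 1 (adjusted p = 0.0202), without nano-SiO2 3 (0.0485) or without MT 3 (0.0231, all limma).

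The other senescence members did not pass. Glyma.10G197600, the less abundant NAC53 gene, had 10.4, 11.3 and 10.2 FPKM in nano-SiO2+MT libraries, 10.1, 10.2 and 9.89 in MT libraries, 12.9, 12.7 and 13.2 in nano-SiO2 libraries and 11.7, 11.3 and 12.0 in control libraries. The libraries with MT did not exceed any library without it, and the averaged difference was small, -0.23 ± 0.07 (adjusted p = 0.0572, limma). Glyma.05G195000 (NAC2, ATAF1) ranged from 0.850 to 2.73 FPKM and Glyma.08G307100 (NAC42, JUB1) from 0.328 to 1.27, with averaged differences of 0.20 ± 0.14 and -0.30 ± 0.12 (adjusted p = 0.387 and 0.148, limma).

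Genes of senescence and chlorophyll breakdown outside the NAC family were called in both directions in the averaged MT comparison. Of 36 genes found by description, 23 were tested. MT against control called 4 higher and 0 lower (limma), beside 1.66% and 1.69% of all tested genes. There 15 of the 23 were above 0 (median 0.13, against -0.05), beside 40.8% of all tested genes. The averaged comparison called 4 higher and 2 lower, beside 2.05% and 5.72%, with a median of 0.01 against -0.10 over all tested genes. The largest averaged rise was that of Glyma.11G082300, described as a senescence-associated protein, at 573 ± 114 FPKM in nano-SiO2+MT libraries, 602 ± 72.1 in MT libraries, 407 ± 76.3 in nano-SiO2 libraries and 317 ± 9.62 in control libraries (SD, n = 3 each; 0.70 ± 0.12, adjusted p = 0.005, limma). Among the lower genes was Glyma.09G191200, NON-YELLOW COLORING 1, an enzyme that breaks down chlorophyll b, with -0.31 ± 0.07 (adjusted p = 0.0243, limma). The other was Glyma.17G132900, STAY-GREEN, a protein that starts chlorophyll breakdown, named after its values were seen. It had 0.499, 0.226 and 0.264 FPKM in nano-SiO2+MT libraries, 0.227, 0.258 and 0.380 in MT libraries, 2.16, 1.51 and 1.07 in nano-SiO2 libraries and 0.173, 0.349 and 0.497 in control libraries. The nano-SiO2 libraries were above all others and the only ones to reach 1 FPKM, while MT and control libraries overlapped. STAY-GREEN was thus tested only because of the group where it was high, so its calls are no independent support. Its averaged change was -0.50 ± 0.12 (adjusted p = 0.0274, limma). It was 0.93 ± 0.17 (adjusted p = 0.034, limma) in nano-SiO2 against control and -0.94 ± 0.17 (adjusted p = 0.0202, limma) in nano-SiO2+MT against nano-SiO2.

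Nano-SiO2 without MT called no member. In nano-SiO2 against control 0 of 51 members passed with limma, where 0.492% of all tested genes were called, and 4 members had an unadjusted p under 0.05, beside 10.7% of all tested genes. Averaged over both backgrounds, also added after seeing the data, nano-SiO2 called 0 members by limma, beside 0.166% of all tested genes, with 0 at an unadjusted p under 0.05, beside 5.96%. The 95% intervals of the members' averaged changes reached from -0.45 to 0.66. They are intervals of single genes, not adjusted for the number of members. Being on the scale of log2(FPKM + 1), they understate changes of genes with low FPKM, so larger effects are not excluded.

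None of the 51 members was called between the combined spray and MT. In nano-SiO2+MT against control 1 of 51 members was called, Glyma.01G051300, where 1.37% of all tested genes were. In nano-SiO2+MT against MT 0 members were called by limma, beside 0.294% of all tested genes, and 2 had an unadjusted p under 0.05, beside 4.59%. The largest difference there was -0.42 ± 0.19 (adjusted p = 1.0, limma) for Glyma.16G016700, numbered NAC69 as is NTM2, a membrane-bound factor of salt signalling in germinating Arabidopsis seeds. It had 1.29, 1.42 and 1.80 FPKM in nano-SiO2+MT libraries against 1.70, 1.89 and 3.77 in MT libraries, where MT 3 stood far above the other libraries. The 95% intervals of all members in this comparison reached from -0.84 to 0.95.

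Whether the MT effect differed with and without nano-SiO2 was tested by the interaction, the log2 change of nano-SiO2+MT over nano-SiO2 minus that of MT over control. It called 0 members by limma, beside 0.524% of all tested genes, and 6 had an unadjusted p under 0.05, beside 8.55%. The largest interaction was -0.78 ± 0.37 (adjusted p = 0.591, limma) for Glyma.19G097700 (NAC83), and the intervals of the members reached from -1.57 to 1.28. The F test over the 4 groups called 3 members, Glyma.01G051300, Glyma.06G288500 and Glyma.12G118700, where 4.12% of all tested genes were called. The call of Glyma.12G118700 was lost in 9 of the 12 fits that left out 1 library (adjusted p up to 0.11, limma) and remained without control 1, nano-SiO2 2 or nano-SiO2+MT 3.

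Differences between groups held a median of 47.4% of the variance of log2 values of the members, against 36.2% of all tested genes. With 4 groups of 3 libraries this share is well above 0 even without any group effect, so it does not measure a treatment effect. In the authors' deposited table, whose test names no comparison, a q-value under 0.05 stood beside 6 members: Glyma.06G288500, Glyma.16G043200, Glyma.12G118700, Glyma.19G097700, Glyma.01G051300 and Glyma.02G109800. The smallest of these in the authors' deposited table was 0.000263, for Glyma.06G288500. Of the 75 described NAC genes below the rule, 1 was called once the filter was dropped. Glyma.12G186200 (NAC90) was listed at 0 in nano-SiO2+MT 1 and 3 and had 0.0768 FPKM in nano-SiO2+MT 2. It had 0.303, 0.347 and 0.339 FPKM in MT libraries, against 0.0550 and 0.0623 FPKM in control libraries 1 and 2 and a listing at 0 in control 3 (log2 change 0.36 ± 0.05, adjusted p = 0.0038, limma), at a level where FPKM rests on few fragments. Without the filter it was also called in nano-SiO2+MT against MT (-0.38 ± 0.05, adjusted p = 0.00662, limma), in the interaction (-0.47 ± 0.07, adjusted p = 0.013, limma) and in the F test (adjusted p = 0.00606, limma).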

How the data were processed

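Polyadenylated RNA of 12 soybean leaf samples in 4 groups of 3 was sequenced, per the labels' protocols. For every gene the authors deposited an FPKM in each library and, per the file headers, 1 p-value with its q-value, whose comparison is not named and which was used only for description. DESeq2 1.34.0 and R 4.1.2 appear in the submitters' processing notes. The sources used here name no aligner, quantifier or strand setting. Identifiers are of the annotation Wm82.a4.v1, a suffix left out here, and 0 of the 51 members matched a RefSeq table of 59048 genes, so no sequence or coordinate is given.

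Values were taken as log2(FPKM + 1). Of 46446 genes, the 28260 that reached 1 FPKM in 3 or more libraries were tested. All libraries entered 1 two-sided fit of the 4 group means (R 4.3.3, limma 3.58.1, with the trend and robust options of eBayes), with Benjamini-Hochberg adjustment over the tested genes at 0.05. As the values were not counts, count tests were not used. As separate plants are not stated, p-values reflect only the spread among these samples, part of which may be technical. All libraries carry 1 batch label. On simulated data with known log2 changes of 1 and 2, MT against control recovered 73% and 96% of the changed genes among 28260. The averaged MT comparison recovered 93% and 100%. Changes were simulated only in genes above a minimum mean level, so the genes of lowest FPKM received none. The rates were not split by expression level, and none was obtained for NAC members. They therefore do not give the power for members with low FPKM, and 28 of the 51 had a mean under 3 FPKM.

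Members and gene lists were chosen with earlier results of these data known. Named were called members, the 8 most abundant, the senescence and secondary wall types, the largest change in each comparison, those next to the threshold, and up to 4 genes of largest change per pathway list. Genes outside these criteria carry no values of their own, apart from Glyma.12G186200 and Glyma.17G132900, named after their values were seen. Types follow the number in the description. Alternatives were another pseudocount (0.1), no filter, quantile normalization, median-ratio scaling, the compared groups alone, a replicate block, plain empirical Bayes, each library left out, and control 1 and nano-SiO2 2 left out together. The comparisons averaged over backgrounds were added after seeing the data.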

Additional observations from a re-analysis of the deposited data

How the results depend on the processing

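The number of NAC members called moved with single libraries. With 1 library left out it ranged from 0 to 3 in MT against control (3 in the reported fit), from 0 to 2 in nano-SiO2+MT against control (1), from 0 to 4 in nano-SiO2+MT against nano-SiO2 (1), from 3 to 10 in the averaged MT comparison (8) and from 2 to 4 in the F test (3). Without the filter on low values it was 1 in MT against control, 0 in nano-SiO2+MT against nano-SiO2, 4 in the averaged MT comparison and 1 in the F test. With only the compared groups in the fit it was 5 in MT against control and 0 in nano-SiO2+MT against nano-SiO2. Quantile normalization and median-ratio scaling each gave 2 in nano-SiO2+MT against nano-SiO2; the median change of all tested genes in that comparison was -0.15 as deposited and 0.00 after either scaling. Without control 1 and nano-SiO2 2 together, 1 member was called in MT against control and 2 in nano-SiO2+MT against control. Deviations of same-numbered libraries from their group means correlated at r from -0.34 to 0.527 (median 0.108), with 9 of 18 pairs over 0.1. For differently numbered libraries r was from -0.579 to 0.528 (median -0.0475), with 12 of 36 pairs over 0.1. These values do not settle whether the replicate numbers pair the samples. With the replicate block, 2 members were called in nano-SiO2+MT against control, 4 in nano-SiO2+MT against nano-SiO2, and 10 in the averaged MT comparison. The count stayed at 3 in MT against control, but with other genes: Glyma.02G109800 (adjusted p = 0.05) and Glyma.04G208300 (0.0525) did not pass, and Glyma.06G288500 (0.0072) and Glyma.12G206900 (0.0262, all limma) did. In the averaged comparison the block added Glyma.12G206900 (adjusted p = 0.00352), Glyma.13G174700 (0.0167) and Glyma.07G050600 (0.0414), and Glyma.16G043200 did not pass (0.0501, all limma). No count for nano-SiO2 against control, nano-SiO2+MT against MT or the interaction moved from 0 in any alternative run. The 16 called pairs of a member and a comparison kept their call in 213 of 309 alternatives and lost it in 96, with 0 reversals. Depth limits the members near 1 FPKM most, and their counting error is unknown.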
